A study of Rattus norvegicus with 10 samples.

Results

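The NMDA and AMPA receptor subunit genes were chosen by name. They were the 10 genes Grin1, Grin2a, Grin2b, Grin2c, Grin2d, Grin3a, Gria1, Gria2, Gria3 and Gria4, of 13888 genes that carried a symbol among the mRNA probes. Of these 10, 7 had at least 1 probe whose RefSeq accession matched. They were represented by 11 RNAs, 4 of NMDA and 7 of AMPA receptor subunits, with 1 probe and 1 spot each. No accession of Grin2a, Grin3a or Gria1 was matched, so GluN2A, GluN3A and GluA1 were not analysed here.

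NMDA and AMPA receptors are the glutamate-gated ion channels that carry most fast excitatory transmission in the spinal cord. An NMDA receptor joins the obligatory, glycine-binding GluN1 subunit (Grin1) with glutamate-binding GluN2 subunits (Grin2a to Grin2d) or with GluN3 subunits. A receptor of GluN1 and GluN2 needs glutamate, a co-agonist and depolarization together to carry its full current. An AMPA receptor is assembled from GluA1 to GluA4 (Gria1 to Gria4), and edited GluA2 keeps the channel almost impermeable to calcium. In the dorsal horn both families are known for their part in central sensitization, and NMDA receptor blockers are known to slow the development of opioid tolerance.

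Total RNA came from the lumbar enlargement of the spinal cord of male Sprague Dawley rats weighing 240 to 260 g. The morphine tolerance (MT) group, rats 1 to 5, received 10 μg of morphine intrathecally in 10 μl, 2 times a day for 7 days. The normal saline (NS) group, rats 6 to 10, received the same volume of saline on the same schedule, and each rat had 1 one-colour array. Per the study's methods, tissue was taken after a further injection on the morning of collection. All rats of both groups were therefore injected intrathecally, and the tissue was whole cord, in which a fall in the number of cells of a type and a fall in RNA per cell cannot be told apart.

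Probe intensity depends on the probe as well as on the RNA, so a level is compared between rats and never between subunits. Values are quantile-normalized log2 intensities. The arrays were read in 3 scan runs, judged by a shared scan time: rats 1, 3, 4 and 5 in run 1, MT rat 2 with NS rats 6, 7 and 10 in run 2, and NS rats 8 and 9 in run 3. The arrays of rats 8 and 9 were dimmer, with 63.8% and 58.6% of spots well above background against at least 77.4% on the other 8 arrays. For 37.1% of the 13372 mRNAs tested, rats 8 and 9 both lay outside the range of the other 8 rats. All 9 general neuron, 13 oligodendrocyte and 9 astrocyte marker mRNAs tested were above background on every array. So were all 5 meningeal fibroblast and all 5 erythrocyte mRNAs, 3 of 4 motor neuron and 2 of 4 dorsal root ganglion neuron mRNAs. All had first passed a filter for signal above background on at least 5 arrays, so these counts do not check the tissue label.

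An RNA was called changed at a linear fold over 1.5 combined with a limma P below the 0.05 level before adjustment, and none of the 11 subunit RNAs reached this in either direction. Over all 13372 mRNAs, 2.59% did, 1.61% as higher and 0.987% as lower in MT. No subunit RNA passed a Benjamini-Hochberg adjusted p of 0.05 in limma, which 0.232% of mRNAs did, and 0 of 11 had an unadjusted P below 0.05, against 16.8% of mRNAs. In no subunit RNA were the groups free of overlap, which held for 5.74% of mRNAs. Of the 11 RNAs, 6 had a higher and 5 a lower mean in MT, where 46.8% of all mRNAs had a higher mean. The median difference was 0.0065 on the log2 scale beside -0.016 over all mRNAs. The median size of the difference was 0.10 for the subunits and 0.14 for all mRNAs. The residual spread between rats was about the same, with a median SD of 0.20 for the subunit RNAs and 0.19 for all mRNAs.

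The intervals also bounded the difference in normalized intensity, with the 10 arrays taken as independent. The 95% interval of the difference between MT and NS lay within 1.5-fold either way for all 11 RNAs, which held for 68.2% of all mRNAs. The widest intervals reached 1.47-fold for Grin2d, 1.46-fold for Grin1 and 1.42-fold for Grin2b, and the widest among the AMPA receptor RNAs reached 1.34-fold. With the scan run as a fixed block, where the comparison reduces to MT rat 2 against NS rats 6, 7 and 10, the interval stayed within 1.5-fold for 10 of the 11, and that of Grin2d reached down to -0.83. Under the other alternatives with intervals of their own, between 9 and 11 of the RNAs tested stayed within it. Those that crossed it were Grin1, Grin2b and Grin2d. All these intervals came from limma fits, which draw the variance of each RNA toward that of the others. For the methods' t-test the limma interval was carried over, so ordinary t intervals were not examined. With arrays scaled to their 75th percentiles instead of quantile normalized, the upper limit was 0.81 for Grin2b and 0.99 for Grin2d. On this log2 scale 1.5-fold is 0.58.

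**Figure D1:**
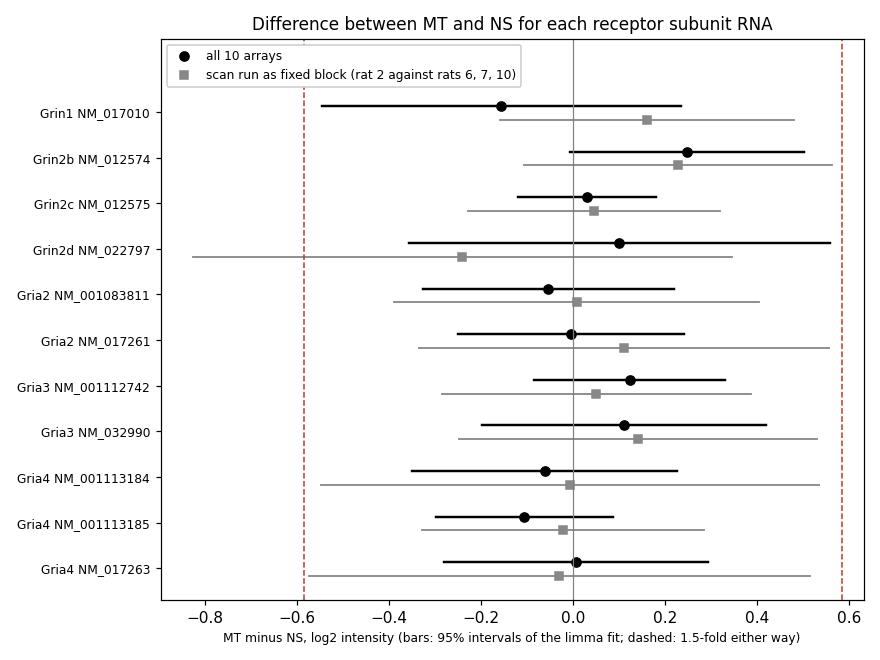
Difference between MT and NS in log2 intensity for each of the 11 receptor subunit RNAs (black circles, all 10 arrays; grey squares, scan run as a fixed block), with 95% intervals of the limma fit and dashed lines at 1.5-fold. All black intervals include 0 and lie between the dashed lines, and the grey interval of Grin2d reaches -0.83.

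Among the NMDA receptor subunits, Grin2b came nearest to a difference. This gene encodes GluN2B, the subunit of slowly closing receptors and the target of ifenprodil-type blockers. Its log2 intensities in MT rats 1 to 5 were 5.38, 5.30, 5.33, 5.58 and 5.68, and in NS rats 6 to 10 they were 5.13, 4.99, 5.38, 5.44 and 5.08. The MT values all lay above those of NS rats 6, 7 and 10, and NS rats 8 and 9 lay within the MT range. The means were 5.45 ± 0.17 in MT and 5.21 ± 0.19 in NS (SD, n = 5 each). The difference of 0.25 (SE 0.11, 95% interval -0.0064 to 0.50) had an unadjusted P of 0.0549 and an adjusted p of 0.316 in limma, and the exact two-sided permutation test over 252 assignments of the rats gave p = 0.0794.

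The Grin2b difference moved with the choice of arrays and scaling while keeping its direction. Without NS rats 8 and 9 it was 0.36 with an unadjusted P of 0.00620 and an adjusted p of 0.198. Within scan run 2, MT rat 2 was 0.23 above the mean of the 3 NS rats and above each of them. When arrays were scaled to their 75th percentiles instead of quantile normalized, it was 0.50 (adjusted p = 0.130), and normexp background correction gave 0.070 (adjusted p = 0.572). Before normalization the Grin2b spot read 21 in rat 8, 15 in rat 9 and between 38 and 59 in the other 8 rats. The normexp offset of 50 shrinks log2 differences of a spot this dim, so 0.070 is not comparable with the other values. The unadjusted P fell below 0.05 in 8 of the 21 alternatives, and the adjusted p ranged from 0.130 to 1.00 over all of them.

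Grin1, which encodes the subunit that every NMDA receptor contains, showed a split inside the NS group instead. Its MT values were 7.65, 7.69, 7.48, 7.70 and 7.77, and its NS values were 7.47, 7.43, 8.21, 8.28 and 7.68. NS rats 8 and 9 lay above all other rats, and the remaining 3 NS rats lay between 7.43 and 7.68. The means were 7.66 ± 0.11 in MT and 7.81 ± 0.40 in NS (SD, n = 5 each), a difference of -0.16 (SE 0.17, 95% interval -0.54 to 0.23, adjusted p = 0.680 in limma). The gap of 0.72 between the NS rats of run 3 and those of run 2 was exceeded in size by 14.4% of mRNAs. Without rats 8 and 9 the Grin1 difference turned to 0.13, and within run 2 it was 0.16. Before normalization the Grin1 spot read 219 in rat 8 and 159 in rat 9, and between 192 and 252 in the other 8 rats.

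Grin2c, encoding GluN2C, the subunit best known from the cerebellum, was the most even of the 4 NMDA receptor RNAs. Its values were 11.10, 11.08, 11.11, 10.98 and 11.09 in MT and 11.01, 10.91, 10.99, 11.11 and 11.17 in NS. All 10 rats lay between 10.91 and 11.17, and the difference of the means was 0.031 (SE 0.067, 95% interval -0.12 to 0.18, adjusted p = 0.839). Grin2d encodes GluN2D, a subunit abundant in the developing nervous system. Its values were 4.51, 3.67, 3.98, 4.28 and 4.59 in MT and 4.14, 3.93, 4.50, 4.29 and 3.67 in NS. The groups covered the same range, and the difference was 0.10 (SE 0.21, 95% interval -0.36 to 0.56, adjusted p = 0.830). Grin2d was the faintest readout, well above background on 5 of 5 MT and 3 of 5 NS arrays, and its difference was 0.51 with 75th percentile scaling (adjusted p = 0.255) and -0.24 with the scan run as a fixed block.

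**Figure D2:**
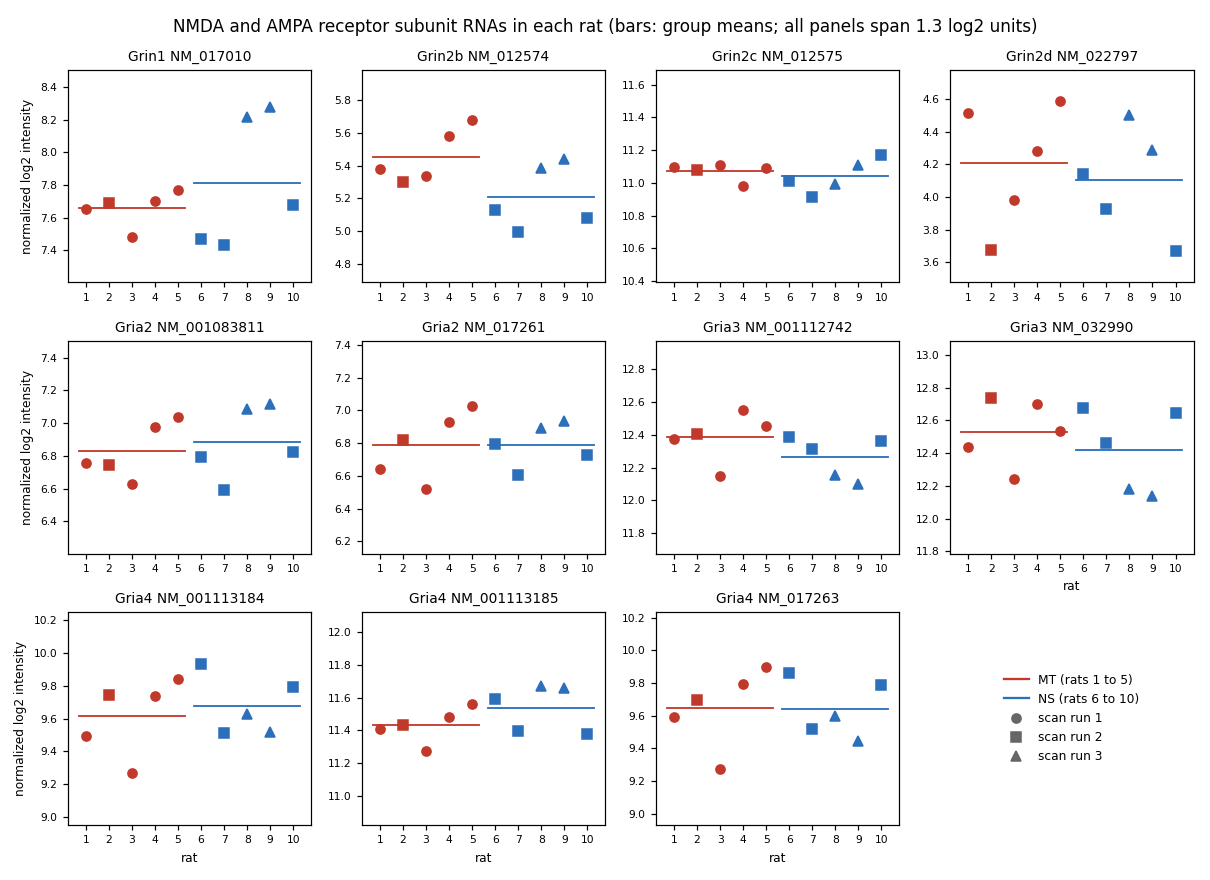
Normalized log2 intensity of the 11 receptor subunit RNAs in each rat, with MT in red, NS in blue, group means as bars and the scan run as the symbol. The groups overlap in every panel, and the triangles of NS rats 8 and 9 stand above all others for Grin1 (8.21 and 8.28).

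The differences of the AMPA receptor RNAs ran from -0.11 to 0.12, with 3 higher and 4 lower in MT and no adjusted p below 0.534. Gria2 encodes GluA2, the subunit that sets calcium permeability. The accession NM_017261 read 6.64, 6.82, 6.52, 6.93 and 7.03 in MT and 6.79, 6.61, 6.89, 6.94 and 6.73 in NS, with means of 6.79 ± 0.21 and 6.79 ± 0.13 (SD, n = 5 each). The difference was -0.0033 (SE 0.11, 95% interval -0.25 to 0.24). The other accession, NM_001083811, ran from 6.63 to 7.04 in MT and from 6.59 to 7.12 in NS, a difference of -0.054 (SE 0.12, 95% interval -0.33 to 0.22). Both differences were positive without rats 8 and 9 (0.074 and 0.088), and neither had an unadjusted P below 0.05 under any alternative run.

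Gria3, an X-linked gene, encodes GluA3. The accession NM_001112742 read 12.37, 12.41, 12.15, 12.55 and 12.46 in MT and 12.39, 12.32, 12.16, 12.10 and 12.36 in NS. The lowest values were those of NS rats 8 and 9 and MT rat 3, and the other 7 rats lay from 12.32 to 12.55. The difference was 0.12 (SE 0.093, 95% interval -0.085 to 0.33, adjusted p = 0.534). The accession NM_032990 ran from 12.24 to 12.73 in MT and from 12.14 to 12.67 in NS, with rats 8 and 9 below all other rats. Its difference was 0.11 (SE 0.14, 95% interval -0.20 to 0.42) over all rats and -0.064 without those 2.

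Gria4 encodes GluA4, which is found in fast-signalling circuits, and it had 3 accessions. The accession NM_001113185 read 11.41, 11.43, 11.28, 11.48 and 11.56 in MT and 11.59, 11.40, 11.67, 11.66 and 11.38 in NS. Rats 8 and 9 again lay outside the others, here above them. The difference was -0.11 (SE 0.086, 95% interval -0.30 to 0.087, adjusted p = 0.563), the lowest among the AMPA receptor RNAs, and it kept its sign in all 21 alternatives. The accession NM_017263 ran from 9.27 to 9.90 in MT and from 9.45 to 9.86 in NS (difference 0.0065, SE 0.13, 95% interval -0.28 to 0.29), and NM_001113184 ran from 9.27 to 9.85 and from 9.51 to 9.94 (difference -0.061, SE 0.13, 95% interval -0.35 to 0.23). In all, rats 8 and 9 both lay outside the other 8 rats in 4 of the 11 subunit RNAs, above them for Grin1, Gria2 NM_001083811 and Gria4 NM_001113185 and below them for Gria3 NM_032990. In scan run 2, the only run with both groups, MT rat 2 lay above all 3 NS rats in 5 of the 11 RNAs, below them in 0 and among them in 6, where the shares over all mRNAs were 26.2%, 23.5% and 50.3%.

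For the genes with more than 1 accession, the difference between 2 accessions within a rat shows whether their probes shifted against each other. The constant difference in brightness between probes plays no part in it. Whether each probe reads only its own transcript variant is not known here, so the pairs cannot decide whether variants shifted. A total of 5 such pairs were compared, by exact two-sided permutation tests without adjustment. The Gria4 accessions NM_001113184 and NM_017263 moved together most closely: the difference of the first from the second varied by 0.17 over the 10 rats. It was -0.033 ± 0.056 in MT and 0.035 ± 0.037 in NS (SD, n = 5 each), so that MT minus NS was -0.068 (exact permutation p = 0.0635), and the groups overlapped. The run means were -0.053 in run 1, 0.030 in run 2 and 0.050 in run 3. Within run 2, the run with both groups, the sign was the opposite, with 0.048 in MT rat 2 and a mean of 0.024 in the 3 NS rats.

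In all 5 pairs the means of the 3 scan runs lay further apart than those of the 2 groups. This does not weigh run against group, because 3 means of fewer arrays spread more widely than 2 means of 5. The groups were also made up of arrays of these same runs. For the Gria2 pair, NM_001083811 minus NM_017261, the difference spanned 0.27 over the rats and was 0.041 ± 0.078 in MT and 0.091 ± 0.098 in NS (SD, n = 5 each, exact permutation p = 0.389), with run means from 0.00057 in run 2 to 0.19 in run 3. For the Gria3 pair, NM_001112742 minus NM_032990, the mean was -0.26 in run 2 against -0.096 in run 1 and -0.032 in run 3, and MT differed from NS by 0.013 (exact permutation p = 0.889). The 2 pairs with Gria4 NM_001113185 spanned 0.56 and 0.62 over the rats, with rats 8 and 9 at one end of both, and gave exact permutation p values of 0.730 and 0.413. No pair separated the groups. The smallest p that this design allows is 0.00794.

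**Figure D3:**
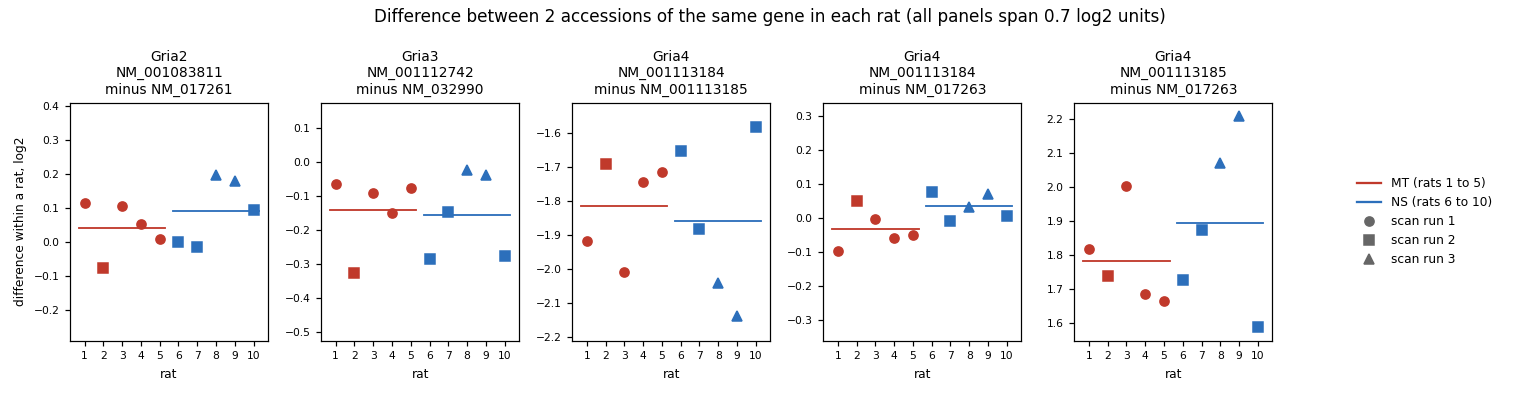
Difference in log2 intensity between 2 accessions of the same gene in each rat, with MT in red, NS in blue, group means as bars and the scan run as the symbol. The Gria4 pair NM_001113184 and NM_017263 spans 0.17, and the NS triangles of run 3 lie at one end in both pairs with NM_001113185.

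By the root mean square difference of values centred over the 10 rats, the named mRNAs whose pattern was most like that of Grin2b, the subunit RNA with the smallest P, were Pclo (0.049), N4bp3 (0.059) and Tbx6 (0.072), out of 12446 candidates. The SD of Grin2b over the 10 rats was 0.22 on the same scale.

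The genes around the receptors were examined through 4 lists with 82 genes, of which 69 were tested through 79 mRNAs. Of these mRNAs, 55 had a higher and 24 a lower mean in MT, with a median of 0.076. Over all mRNAs, 46.8% had a higher mean in MT, and the median was -0.016. An unadjusted P below 0.05 was reached by 9 of the 79 (11.4%), where 16.8% of all mRNAs reached it. The criteria of fold and P were met by 1 of the 79, and by 2.59% of all mRNAs. None passed the adjusted threshold, which 0.232% of all mRNAs did, and the groups did not overlap in 6, against 5.74% of all mRNAs. The number with an unadjusted P below 0.05 depended on the arrays and the scaling: it was 22 without NS rats 8 and 9, 17 with 75th percentile scaling, 4 with the scan run as a random block (Dlg4, Ferry3, Grik2 and Sptan1) and 1 as a fixed block (Dlg3), where the shares of all mRNAs were 17.7%, 19.1%, 7.33% and 3.88%.

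In the list of kainate, delta and other glutamate-gated subunits, 8 of 10 mRNAs had higher and 2 lower means in MT, with a median of 0.041, and 1 had a P below 0.05. This was Grik2, which encodes the kainate receptor subunit GluK2. Its values were 9.01, 8.82, 9.13, 8.94 and 8.99 in MT and 8.70, 8.34, 8.39, 8.36 and 8.74 in NS. All 5 MT rats exceeded all 5 NS rats, with means of 8.98 ± 0.11 and 8.51 ± 0.20 (SD, n = 5 each). The difference of 0.47 (SE 0.10, 95% interval 0.24 to 0.70) had an unadjusted P of 0.00109 and an adjusted p of 0.0980 in limma, and the linear fold of 1.38 was below the criterion. Within run 2, MT rat 2 lay 0.22 above the mean of the 3 NS rats. The list also held Grin3b, which encodes the NMDA receptor subunit GluN3B and was not among the chosen subunit genes. Its difference was 0.014 (adjusted p = 0.962 in limma). Grik1 entered the list through more than 1 accession.

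Among AMPA receptor auxiliary and clustering proteins, 9 of 17 mRNAs had higher and 8 lower means, with a median of 0.076. Cnih3, encoding a cornichon protein that binds AMPA receptors and slows their closing, was the 1 gene of the 4 lists that met the criteria. Its values were 4.94, 3.89, 5.07, 4.81 and 5.20 in MT and 3.34, 3.79, 4.33, 2.68 and 3.21 in NS. Of the MT rats, 4 lay above all NS rats, and MT rat 2, the one scanned with NS rats, lay below NS rat 8. The difference was 1.31 (SE 0.33, 95% interval 0.58 to 2.04, 2.48-fold), with an unadjusted P of 0.00248 and an adjusted p of 0.125. The probe cleared the background on 5 of 5 MT arrays but on only 1 of 5 NS arrays. It therefore passed the filter of at least 5 arrays only through the MT group, where it was high. Most NS values were readings that did not clear the background, so 2.48-fold is not a measured ratio of RNA levels. The P carries the same limit. The difference was 0.31 after normexp correction, 0.45 with the scan run as a fixed block (unadjusted P = 0.417) and 0.89 as a random block (unadjusted P = 0.0574), and met the criteria in none of these.

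In the same list no TARP gene tested (Cacng2, Cacng3, Cacng4, Cacng5, Cacng7 and Cacng8) and no neuronal pentraxin gene (Nptx1, Nptx2 and Nptxr) had an unadjusted P below 0.05. TARPs carry AMPA receptors to the synapse, and neuronal pentraxins cluster them there. Cacng2, which encodes stargazin, differed by 0.14 (SE 0.072, adjusted p = 0.364), Cnih2 by 0.20 (SE 0.10, adjusted p = 0.344) and Nptx1 by 0.095 (SE 0.097, adjusted p = 0.644). The second mRNA of the list with a P below 0.05 was Ferry3, at -0.28 (unadjusted P = 0.00555, adjusted p = 0.157). Its product belongs to an endosomal RNA transport complex, and it stood in the list through an error in place of Frrs1l, of which no RNA was tested.

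Of the 24 scaffold and trafficking mRNAs, 20 had higher and 4 lower means in MT, with a median of 0.14, and 3 had a P below 0.05, all of them higher. Dlg4, which encodes PSD-95, the main scaffold that anchors NMDA receptors in the postsynaptic density, read 13.48, 13.38, 13.36, 13.48 and 13.62 in MT and 13.24, 13.13, 12.93, 12.94 and 13.31 in NS. All 5 MT rats exceeded all 5 NS rats, and rats 8 and 9 were the lowest. The difference was 0.35 (SE 0.095, unadjusted P = 0.00381, adjusted p = 0.141). Within run 2, MT rat 2 lay 0.15 above the mean of the 3 NS rats. A second Dlg4 RNA, listed under the same accession in another version, differed by 0.18 (unadjusted P = 0.0796). Grip1, encoding a scaffold of GluA2 and GluA3, differed by 0.42 (unadjusted P = 0.0123, adjusted p = 0.195) and Gripap1, encoding its partner, by 0.32 (unadjusted P = 0.0443, adjusted p = 0.295).

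Of the 28 mRNAs of NMDA receptor co-agonist enzymes, kinases, phosphatases and downstream genes, 18 had higher and 10 lower means, with a median of 0.034. Sptan1, encoding the alpha-II spectrin of the membrane skeleton, had the smallest P. Its values were 14.19, 14.24, 14.23, 14.18 and 14.26 in MT and 14.07, 13.93, 13.90, 13.99 and 14.09 in NS, without overlap, and the difference was 0.22 (SE 0.061, unadjusted P = 0.00447, adjusted p = 0.149). Ppp3cb, a calcineurin catalytic subunit gene, differed by 0.32 (unadjusted P = 0.0246, adjusted p = 0.247), and Akap5, whose product anchors kinases and calcineurin near the receptors, by -0.44 (unadjusted P = 0.0344, adjusted p = 0.272). The genes for serine racemase (Srr), D-amino acid oxidase (Dao), CaMKII alpha (Camk2a) and Src had adjusted p values of 0.704, 0.745, 0.669 and 0.538. Grik2, Cnih3, Dlg4 and Sptan1 were named by a rule that took genes past the criteria or with the smallest P of their list. Their differences and P values are thus those of genes picked by their results in this same comparison. Ferry3, Grip1, Gripap1, Ppp3cb, Akap5 and the other list genes with values here were chosen outside that rule, after their values were seen.

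**Figure D4:**
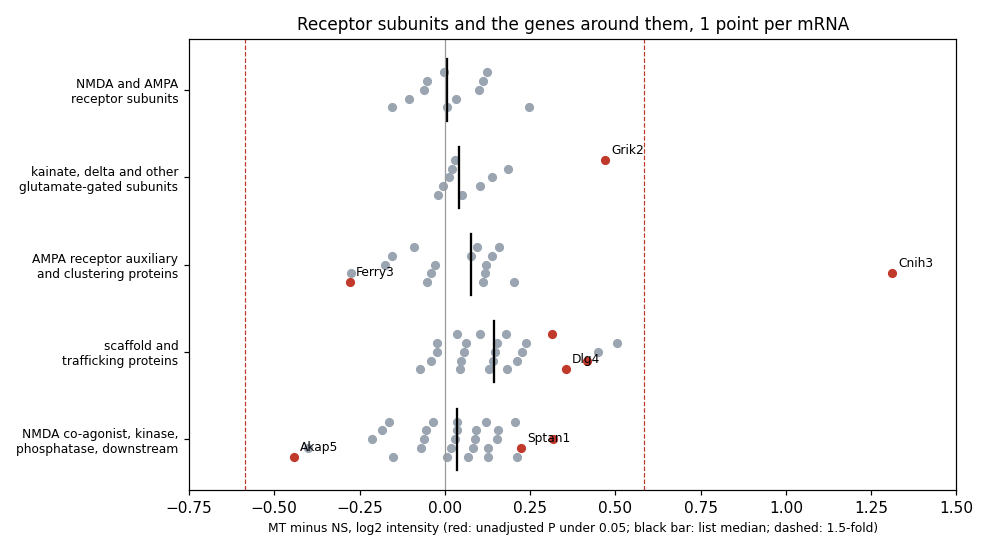
Difference between MT and NS in log2 intensity for each mRNA of the receptor subunits and of the 4 lists around them, with unadjusted P below 0.05 in red, list medians as black bars and dashed lines at 1.5-fold. No receptor subunit is red, and Cnih3 at 1.31 is the only point beyond the dashed lines.

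**Figure D5:**
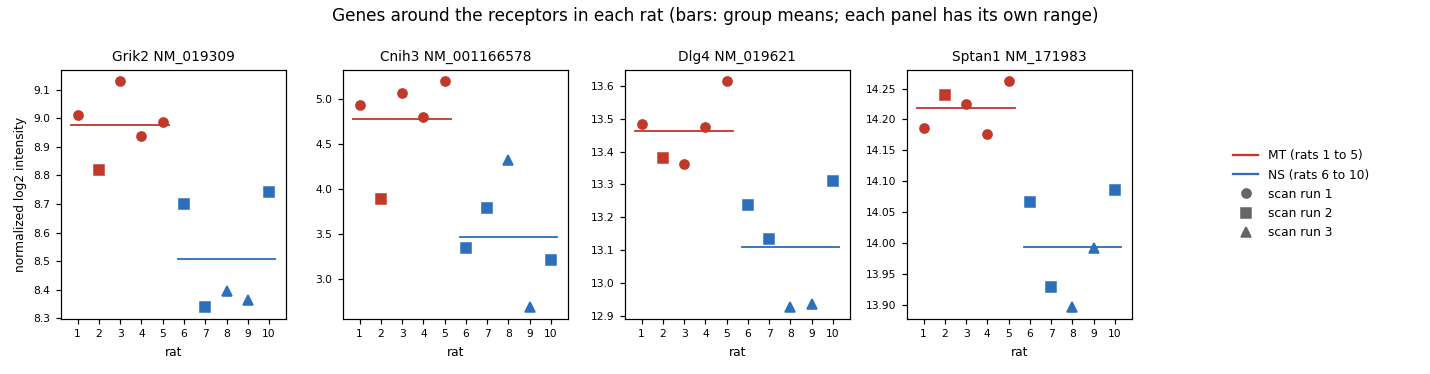
Normalized log2 intensity of Grik2, Cnih3, Dlg4 and Sptan1 in each rat, with MT in red, NS in blue, group means as bars and the scan run as the symbol. MT rat 2 (red square) is the lowest MT rat for Grik2 and Cnih3, at 8.82 and 3.89.

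Markers of several cell types also had different means in the groups. Over all mRNAs, 46.8% had a higher mean in MT and 16.8% had an unadjusted limma P below 0.05. Of 9 general neuron mRNAs, 6 had higher means in MT, with a median of 0.16, and 3 had an unadjusted P below 0.05 (Eno2, Rbfox3 and Uchl1), and the mean level of the list, centred over the rats, ran from -0.016 to 0.16 in MT and from -0.15 to 0.050 in NS. All 7 microglia mRNAs had lower means, with a median of -0.34, 5 of them with an unadjusted P below 0.05 and Tmem119 at -1.24, and their mean level ran from -0.52 to 0.070 in MT and from -0.10 to 0.41 in NS. Of 5 neutrophil mRNAs, 4 had higher means, with a median of 0.63, and their mean level did not overlap between the groups, from 0.12 to 0.60 in MT and from -0.52 to -0.19 in NS. The medians were 0.11 for 6 excitatory neuron, -0.13 for 5 inhibitory neuron, 0.29 for 4 motor neuron, -0.024 for 9 astrocyte and 0.021 for 13 oligodendrocyte mRNAs. The other lists had medians of -0.046 for 5 oligodendrocyte precursor, 0.020 for 4 dorsal root ganglion neuron, -0.026 for 5 endothelial, -0.017 for 5 erythrocyte, 0.39 for 5 meningeal fibroblast and 0.020 for 3 skeletal muscle mRNAs. No marker mRNA passed the adjusted threshold, and the part of the cell makeup in the values of the receptor genes was not tested.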

How the data were processed

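Lumbar enlargement RNA from 5 MT and 5 NS rats was measured on one-colour rat lncRNA arrays. The authors extracted the scans with Agilent Feature Extraction 11.0.1.1 and deposited background-subtracted spot intensities on a linear scale, together with a table of quantile-normalized log2 intensities made in GeneSpring. Here spot intensities (floor 1) were converted to log2 and quantile normalized, outlier spots were dropped, and spots and then probes of an RNA were averaged. The filter kept RNAs with more than 50% of their spots flagged as above background, on a minimum of 5 arrays. MT was compared with NS by limma 3.58.1 in R 4.3.3 over 20283 RNAs, with Benjamini-Hochberg adjustment over all of them, and each single RNA also by an exact two-sided permutation test. The fold criterion of the study was read as 1.5 on the linear scale, combined with P below 0.05 before adjustment. The mRNAs were named by matching RefSeq accessions, without versions, to the RefSeq annotation of GRCr8, which covered 14274 of 15323 mRNA probes. The number of arrays and the signal over background limit the precision. The simulated arrays on which the steps were tested had 5 MT and 5 NS rats with independent values. They held no scan runs, so they did not test how the steps behave when run and group overlap.

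The subunits and the gene lists were chosen with earlier results of these data known. All subunits were named, of each pathway list up to 3 genes in each direction with the smallest P among those past the criteria or else the 1 with the smallest P, of marker lists genes only where a result turned on them, and the 3 mRNAs most like the subunit RNA with the smallest P. The alternatives were 75th percentile scaling, normexp (offset 50), the deposited table, no filter, a filter on all arrays, outlier spots kept, single probes, the methods' t-test, the scan run as a fixed or random block, and arrays left out. Normexp used the median spot signal, a choice made after seeing the files, and the planned version on the mean signal was not run. The plots used matplotlib 3.10.9 in Python 3.11.15. Probe sequences, protein sequences and gene positions were not used here.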

Additional observations from a re-analysis of the deposited data

Results flagged for a closer look

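For Grin2c NM_012575 in the MT group, rat 4 read 10.98 while the other 4 MT rats lay between 11.08 and 11.11, and the gap took up 0.757 of the range of the group, above the critical ratio of 0.71 for 5 samples. In 40 groups of 5 rats checked, this was the only one past the critical ratio, and chance alone passes it in about 1 group in 20.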

How the results depend on the processing

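No receptor subunit RNA met the criteria of fold and P, and none passed an adjusted p of 0.05, under any of the 21 alternatives. The number of subunit RNAs with an unadjusted P below 0.05, which was 0, became 2 with 75th percentile scaling (Grin2b and Grin2d), 1 with the deposited table, 1 with the filter on all arrays and 1 without NS rats 8 and 9, and ran from 0 to 1 when each rat was left out in turn (1 without MT rat 2, MT rat 3, NS rat 8 or NS rat 9), always Grin2b. The direction held in every alternative for 3 RNAs (Grin2b, Gria3 NM_001112742 and Gria4 NM_001113185) and turned at least once for the other 8, with 31 values turned and 199 not turned. With 75th percentile scaling Grin2c was -0.020, Gria2 NM_001083811 0.061 and Gria2 NM_017261 0.12. With normexp correction Gria4 NM_017263 was -0.019. With the scan run as a fixed block Grin1 was 0.16, Grin2d -0.24, Gria2 NM_001083811 0.0081, Gria2 NM_017261 0.11 and Gria4 NM_017263 -0.029, and as a random block Grin2d was -0.094 and Gria2 NM_017261 0.040. Without NS rats 8 and 9 Grin1 was 0.13, Gria2 NM_001083811 0.088, Gria2 NM_017261 0.074, Gria3 NM_032990 -0.064 and Gria4 NM_017263 -0.072. When each rat was left out in turn, the difference ran from -0.00024 to 0.064 for Grin2c, from -0.0086 to 0.24 for Grin2d, from -0.13 to 0.0047 for Gria2 NM_001083811, from -0.064 to 0.064 for Gria2 NM_017261, from -0.12 to 0.026 for Gria4 NM_001113184 and from -0.055 to 0.10 for Gria4 NM_017263. These turns all concern differences that passed no test in the main comparison, and their cause was not tested.

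The number of genes around the receptors that met the criteria, which was 1 (Cnih3), became 3 with 75th percentile scaling, 0 with normexp correction, 0 with the filter on all arrays, which drops the Cnih3 probe, 0 with the scan run as a fixed block, 0 as a random block and 2 without NS rats 8 and 9. It ran from 1 to 2 when each rat was left out in turn (2 without MT rat 2, NS rat 7 or NS rat 10). None of these genes passed an adjusted p of 0.05 under any alternative. Run 1 held MT rats only and run 3 NS rats only, so for those arrays the run and the group cannot be told apart. No paired analysis was possible because the groups share no rat numbers.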
